A study of Homo sapiens with 24 samples.

Results

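The 10 genes described here encode the switch that lets a cell leave G1: the D-type cyclins (CCND1, CCND2 and CCND3), their kinases (CDK4 and CDK6), the Cip/Kip inhibitors (CDKN1A, CDKN1B and CDKN1C) and a pair of INK4 inhibitors (CDKN2C and CDKN2D). They were taken by symbol from a table of 22026 genes, and 10 of 10 were in it. The cells were A549, an established line from a human lung adenocarcinoma, grown in CAF conditioned medium or in control medium. CAF, left unexplained in the labels, is the usual short form of cancer-associated fibroblast. Polyadenylated RNA was sequenced at 3, 6, 12, 24, 48 and 72 h, 1 library per medium and time, so that each medium had 6 libraries. The values do not keep apart the 2 biological replicates mentioned in the design text, and no test was made at a single time. The medium effect was measured over the 6 times, pairing the CAF and control medium libraries of each. Nothing in the labels ties the libraries to separate cultures. The p-values therefore measure only how far these libraries scatter, and that scatter may be technical. For the medium effect it is the spread of the CAF minus control difference among times, so any change of the effect with time enters it too.

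D-type cyclins are made in response to growth signals and bind CDK4 or CDK6, and the complexes phosphorylate the retinoblastoma protein RB1, which then releases E2F transcription factors that switch on the genes of S phase. INK4 proteins bind CDK4 and CDK6 and keep the cyclin out. The Cip/Kip proteins p21 (CDKN1A), p27 (CDKN1B) and p57 (CDKN1C) inhibit cyclin E and cyclin A complexes of CDK2, and p21 and p27 also help cyclin D assemble with its kinase. A549 cells are known for a homozygous loss of the INK4 genes CDKN2A and CDKN2B on chromosome 9.

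Levels are in RPKM as deposited by the authors, that is, reads scaled by gene length and by library depth. Libraries taken at 3, 6 and 12 h held 23.9 to 29.3 M reads and those taken at 24, 48 and 72 h held 33.9 to 40.6 M. Depth therefore moved with time, while both media lay in the same range within each period. CDKN2A reached at most 0.04 RPKM and CDKN2B at most 0.01 RPKM in any of the 12 libraries, 2 reads and 1 read. Of the fibroblast markers 2 of 8 averaged at least 1 RPKM (COL1A1 and FAP). The 8 together summed to 8.22 to 11.4 RPKM in CAF medium and 4.50 to 11.03 RPKM in control medium. COL1A2 and COL3A1 stayed at or below 0.12 and 0.16 RPKM. Of the 2 fibroblast markers tested 0 passed limma's test over the 6 times (1 at an unadjusted p under 0.05), and COL1A1 rose over 3 to 12 h (log2 1.11, adjusted p = 0.0259), a call lost when 3, 6 or 12 h was left out (adjusted p = 0.077, 0.175 and 0.0917). THY1 averaged 1.15 RPKM in CAF medium and 0.482 RPKM in control medium and was higher in CAF medium at 6 of 6 times, with no test because it lay under the filter on low values. Epithelial markers summed to 1969 to 3481 RPKM in CAF medium and 2447 to 3211 RPKM in control medium. Of these 5 epithelial markers EPCAM rose over the 6 times (log2 0.82, adjusted p = 0.0174), KRT19 over 3 to 12 h (1.58, adjusted p = 0.0217), and EPCAM and CDH1 over 24 to 72 h (1.034 and 0.94, adjusted p = 0.0202 and 0.0434), and 0 fell. The first of these calls and that of KRT19 were lost when 6 or 12 h was left out, the late one of EPCAM without 24 or 48 h, and that of CDH1 without 12, 24, 48 or 72 h. CD68 was the 1 of 4 blood and vessel markers above a mean of 1 RPKM, and it did not pass. The part of these markers in the results below was not tested.

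Over the 12 libraries CDKN1A and CCND1 had the highest levels, with means of 52.9 ± 23.0 and 51.2 ± 10.1 RPKM (SD, n = 12). Their ranges overlapped, at 31.9 to 117.6 and 37.1 to 69.7 RPKM. CDK4 (27.1 RPKM), CDKN1B (21.2), CCND3 (12.99) and CDK6 (11.2) followed, each with a range that overlapped that of the next. CDKN2C (4.86 RPKM), CDKN2D (3.59) and CDKN1C (2.16) were lower and also overlapped in turn. CCND2 was lowest, at 0 to 0.13 RPKM. The range of CCND1 did not overlap that of CDK4, nor that of CDKN1C that of CCND2. Counts behind these values ran from 71 reads upward in every library for the 8 genes other than CDKN1C and CCND2. CDKN1C had 8 to 406 reads and CCND2 0 to 32.

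**Figure D1:**
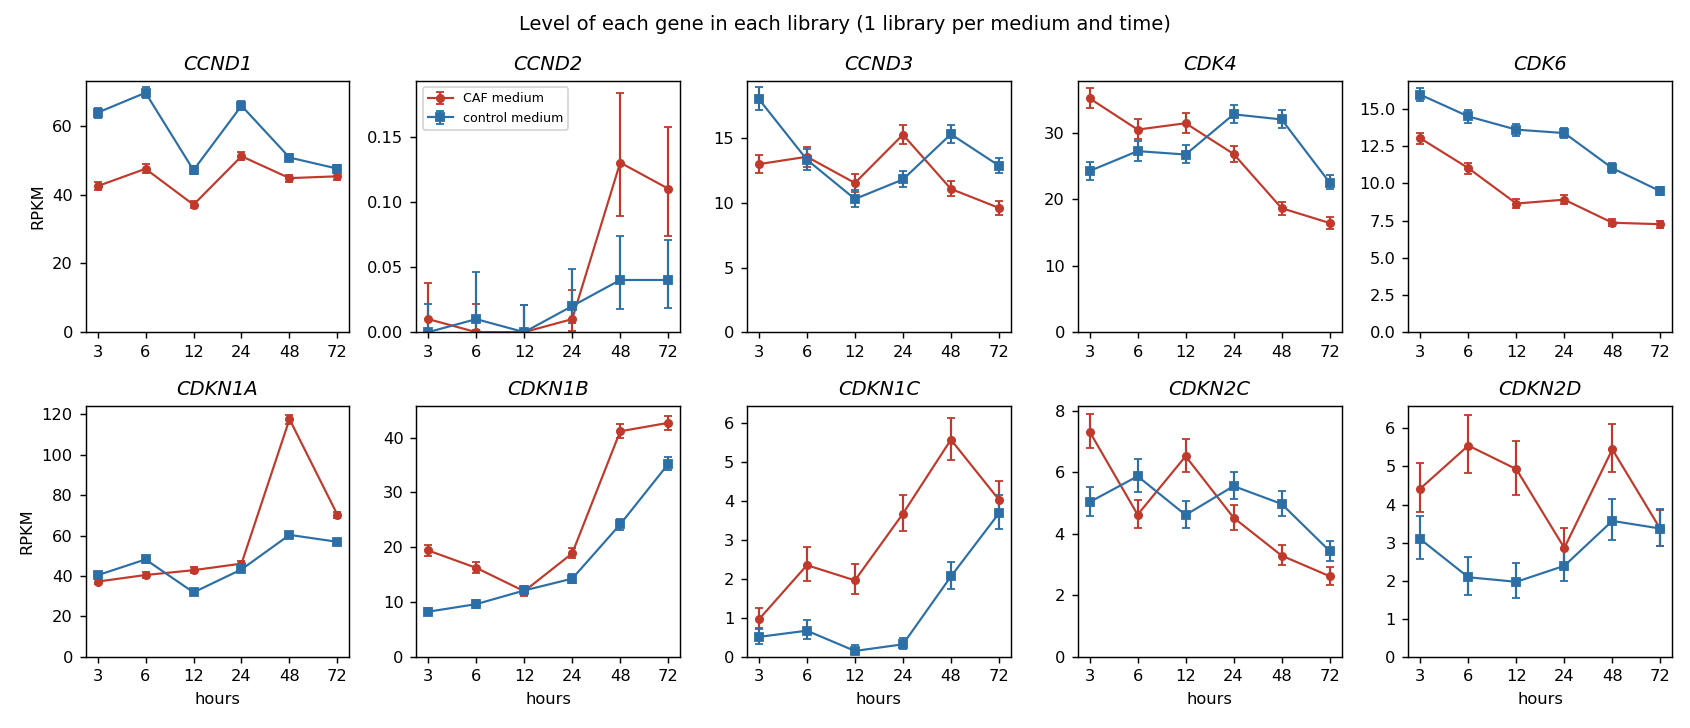
Level of each gene in RPKM against hours (evenly spaced, from 3 to 72 h), with circles for CAF medium and squares for control medium. Each point is 1 library and bars are 95% Poisson intervals that cover counting error only. CCND1 and CDK6 lie lower in CAF medium at 6 of 6 times, CDKN1C lies higher at 6 of 6, and CDK4 crosses between 12 and 24 h.

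Across the 6 times, 5 of the 9 genes that averaged 1 RPKM or more changed in CAF medium, where 10.2% of the 12029 tested genes changed (limma on log2(RPKM + 0.5), Benjamini-Hochberg adjusted p under 0.05). The inhibitors CDKN1B, CDKN1C and CDKN2D rose, while 6.06% of all tested genes rose. The cyclin CCND1 and the kinase CDK6 fell, while 4.13% of all tested genes fell. CCND3, CDK4, CDKN1A and CDKN2C did not pass the test, and CCND2 was too low to enter it. The median log2 change of the 9 genes was -0.08, beside 0.002 over all tested genes. The level ranges of the media overlapped for each of the 10 genes. In bulk RNA a lower level in each cell and fewer cells with the transcript cannot be told apart. These calls depend on which times are included: without the 6, 12 or 24 h pair none of the 9 passed, while 34, 35 and 117 of all tested genes still did. Without the 3 h pair, or without the 48 h pair, CDK6 and CDKN1C passed, and without the 72 h pair 5 did. With no filter on low values, or with no time term, 0 of the 9 passed limma's test (5 and 4 had an unadjusted p under 0.05).

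**Figure D2:**
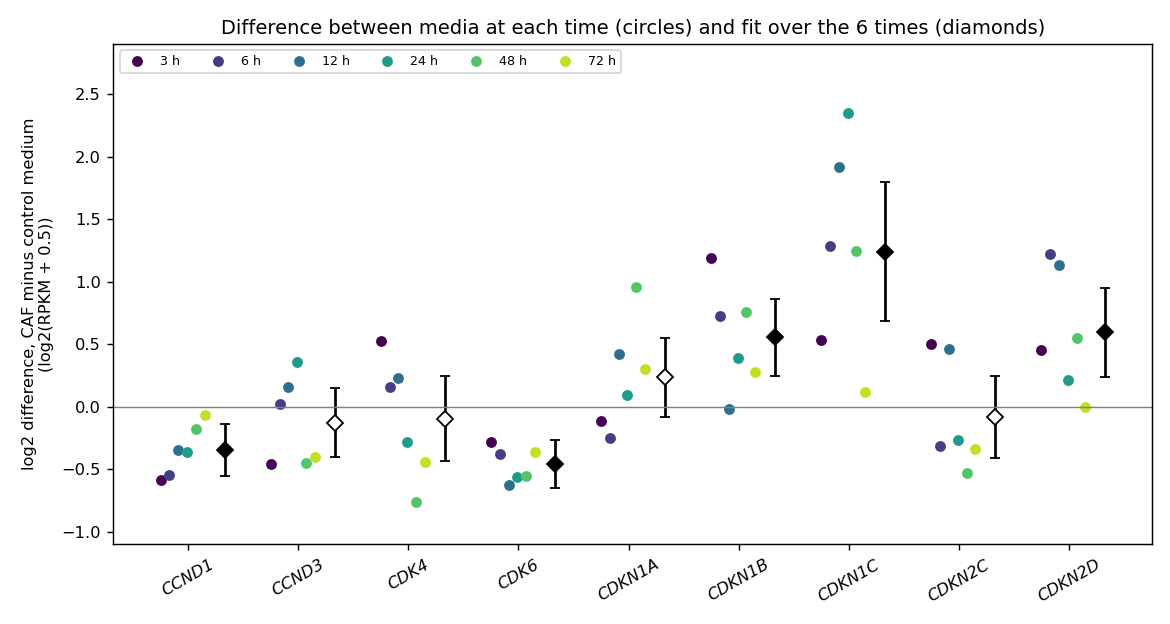
Difference between the media, log2(RPKM + 0.5) in CAF minus control medium, for the 9 tested genes. Circles are the single times from 3 h (left) to 72 h (right), diamonds are the fit over the 6 times with its 95% interval, filled where the adjusted p was under 0.05. CDKN1C has the highest diamond at 1.24 and CDK6 the lowest at -0.46.

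Among the cyclins CCND1, the main D-type cyclin of most epithelial cells, fell. It measured 42.5, 47.6, 37.1, 51.2, 44.9 and 45.4 RPKM in CAF medium at 3, 6, 12, 24, 48 and 72 h, against 63.9, 69.7, 47.2, 66.0, 50.9 and 47.6 RPKM in control medium. CAF medium was lower at 6 of 6 times, and the gap was wide at 3 and 6 h and narrow at 72 h. The means were 44.8 ± 4.77 RPKM in CAF medium and 57.5 ± 10.1 RPKM in control medium (SD, n = 6 each), a log2 change of -0.35 ± 0.09 (SE, adjusted p = 0.0437). CCND1 also fell over 3 to 12 h taken alone, by 0.49 ± 0.12 on the log2 scale (adjusted p = 0.0451). Over 24 to 72 h its change was -0.20 ± 0.12 (adjusted p = 0.388), and the difference between the periods was 0.29 ± 0.18 (adjusted p = 0.574). The call over the 6 times sat close to the threshold and was lost when 3, 6, 12, 24 or 48 h was left out (adjusted p = 0.0781, 0.136, 0.0944, 0.128 and 0.0544) and under quantile normalization (adjusted p = 0.0567). The early call was lost when 3, 6, 12, 48 or 72 h was left out (adjusted p = 0.113, 0.233, 0.119, 0.0545 and 0.0665) and under quantile normalization (0.059).

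CCND3, a D-type cyclin important in blood cells, measured 13.01, 13.6, 11.6, 15.3, 11.1 and 9.62 RPKM in CAF medium and 18.04, 13.4, 10.3, 11.8, 15.3 and 12.9 RPKM in control medium, in order of time. The 2 media changed places from time to time, with CAF medium higher at 3 of 6. The log2 change was -0.13 ± 0.13 (adjusted p = 0.522), with a 95% interval of -0.41 to 0.15. CCND2 was nearly absent at 3 to 24 h in both media, with at most 5 reads per library. At 48 and 72 h it reached 0.13 and 0.11 RPKM in CAF medium (32 and 29 reads) and 0.04 RPKM at both times in control medium (9 and 10 reads). The exact Poisson intervals of the 48 h libraries, 0.0888 to 0.183 RPKM in CAF medium and 0.0178 to 0.0740 RPKM in control medium, did not overlap, which speaks of counting error in these libraries only. In the libraries with no CCND2 read, 3 reads would have been 0.0167 to 0.0174 RPKM.

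CDK6, a kinase partner of the D cyclins, measured 13.04, 11.03, 8.65, 8.91, 7.36 and 7.26 RPKM in CAF medium at 3, 6, 12, 24, 48 and 72 h, against 15.97, 14.5, 13.6, 13.4, 11.03 and 9.48 RPKM in control medium. It was lower in CAF medium at 6 of 6 times. The means were 9.38 ± 2.26 RPKM in CAF medium and 13 ± 2.36 RPKM in control medium (SD, n = 6 each), a log2 change of -0.46 ± 0.09 (SE, adjusted p = 0.0173). The early and the late effects were alike in size, -0.43 ± 0.13 and -0.49 ± 0.13 (adjusted p = 0.0703 and 0.0544), with a difference of -0.06 and a 95% interval of -0.46 to 0.33. The call over the 6 times was lost when 6, 12 or 24 h was left out (adjusted p = 0.0608, 0.0584 and 0.0672), with log2 changes of -0.43 to -0.48 there.

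CDK4, the other kinase partner, was higher in CAF medium at 3 of 3 early times and lower at 3 of 3 late ones. It measured 35.2, 30.5, 31.5, 26.8, 18.7 and 16.4 RPKM in CAF medium and 24.3, 27.3, 26.7, 32.8, 32.02 and 22.5 RPKM in control medium. Over the 6 times these cancelled to a log2 change of -0.10 ± 0.15 (adjusted p = 0.713). The early effect was 0.31 ± 0.14 and the late effect -0.50 ± 0.14 (adjusted p = 0.194 and 0.0708), and the late minus early difference of -0.80 ± 0.19 did not pass (unadjusted p = 0.00161, adjusted p = 0.113). CDK4 overlaps TSPAN31 in the RefSeq annotation, and the use of strand in counting is not given in the sources used here, so that reads of the overlap cannot be told apart.

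Of the Cip/Kip inhibitors, CDKN1B (p27, which restrains CDK2 when growth signals are low) and CDKN1C (p57, an imprinted inhibitor) rose in CAF medium. The promoter of CDKN1B, 250 bases before to 50 bases after the start site from RefSeq (GRCh38.p14, chr12:12717118-12717417, plus strand), is printed because the gene rose in CAF medium and with time. Capitals mark 1 GC box (GGGCGG, bound by SP1-type factors) and 3 CCAAT boxes, searched on both strands.

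CDKN1B: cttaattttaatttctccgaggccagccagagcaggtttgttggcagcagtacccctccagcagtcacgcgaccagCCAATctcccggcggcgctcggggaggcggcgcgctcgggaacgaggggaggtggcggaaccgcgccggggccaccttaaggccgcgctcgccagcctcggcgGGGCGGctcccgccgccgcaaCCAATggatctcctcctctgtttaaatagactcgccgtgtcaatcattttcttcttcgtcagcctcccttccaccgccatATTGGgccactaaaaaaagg

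Of 35116 promoters of the same length 45.0% hold the GC box and 34.6% a CCAAT box. The forkhead motif GTAAACA, in 3.42% of promoters, was not among these letters. CDKN1B measured 19.4, 16.2, 12.0, 18.9, 41.2 and 42.7 RPKM in CAF medium at 3, 6, 12, 24, 48 and 72 h, against 8.23, 9.61, 12.1, 14.3, 24.2 and 35.2 RPKM in control medium. CAF medium was higher at 5 of 6 times, most at 3 h, where the log2 difference was 1.19, and the media were level at 12 h. The means were 25.1 ± 13.3 RPKM in CAF medium and 17.3 ± 10.4 RPKM in control medium (SD, n = 6 each), a log2 change of 0.55 ± 0.14 (SE, adjusted p = 0.0354). The early effect was 0.63 ± 0.20 and the late effect 0.47 ± 0.20 (adjusted p = 0.0812 and 0.194). The call over the 6 times was lost when 3, 6, 12, 24 or 48 h was left out (adjusted p = 0.0563, 0.108, 0.0563, 0.0879 and 0.0716).

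CDKN1C had the largest relative change of the 10 genes. It measured 0.96, 2.35, 1.96, 3.67, 5.57 and 4.03 RPKM in CAF medium and 0.51, 0.67, 0.15, 0.32, 2.06 and 3.68 RPKM in control medium, in order of time. CAF medium was higher at 6 of 6 times. At 24 h the 3.67 RPKM in CAF medium stood at the level that control medium reached at 72 h, and at 72 h the media were nearly level. The means were 3.09 ± 1.66 RPKM in CAF medium and 1.23 ± 1.38 RPKM in control medium (SD, n = 6 each), a log2 change of 1.24 ± 0.25 (SE, adjusted p = 0.0194). The pseudocount of 0.5 shrinks the change of a gene this low, and the lowest library, at 12 h in control medium, rests on 8 reads (95% Poisson interval 0.0651 to 0.297 RPKM). The early and the late effects were 1.25 ± 0.35 and 1.24 ± 0.35 (adjusted p = 0.0615 and 0.077). The call over the 6 times was lost when 6, 12 or 24 h was left out (adjusted p = 0.0667, 0.0702 and 0.0595). The early effect passed without the 24 or 72 h pair (0.0139 and 0.0338), and the late effect passed without the 72 h pair (log2 1.80, adjusted p = 0.0217).

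CDKN1A, the gene of p21, measured 37.2, 40.5, 42.9, 46.1, 117.6 and 70.2 RPKM in CAF medium, against 40.4, 48.2, 31.9, 43.2, 60.3 and 56.9 RPKM in control medium. The 48 h library of CAF medium was the highest of the 12. The log2 change was 0.23 ± 0.14 over the 6 times (adjusted p = 0.294), 0.02 ± 0.18 early and 0.45 ± 0.18 late (adjusted p = 0.96 and 0.181), and the early value turned negative under median centring (-0.02) and without the 12 h pair (-0.18). The CDKN1A gene overlaps a non-coding RNA gene, DINOL, in the RefSeq annotation.

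Of the INK4 genes, CDKN2D (p19) rose and CDKN2C (p18) did not pass. The CDKN2D promoter is printed as that of the INK4 gene that rose (GRCh38.p14, chr19:10568930-10569229, minus strand, RefSeq). Capitals mark 3 GC boxes (GGGCGG), 1 CCAAT box and 1 E2F-type motif (TTTNNCGC, in 6.89% of promoters), both strands searched, with no overlap between them.

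CDKN2D: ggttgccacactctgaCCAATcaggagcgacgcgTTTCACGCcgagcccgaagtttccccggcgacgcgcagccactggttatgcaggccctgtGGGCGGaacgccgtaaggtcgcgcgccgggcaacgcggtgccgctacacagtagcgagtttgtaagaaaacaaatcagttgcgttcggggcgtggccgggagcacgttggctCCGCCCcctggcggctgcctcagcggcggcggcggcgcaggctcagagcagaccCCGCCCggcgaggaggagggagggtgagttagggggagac

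CDKN2D measured 4.42, 5.55, 4.93, 2.86, 5.45 and 3.36 RPKM in CAF medium at 3, 6, 12, 24, 48 and 72 h, against 3.09, 2.09, 1.97, 2.39, 3.57 and 3.37 RPKM in control medium. CAF medium was higher at 5 of 6 times, most at 6 and 12 h, and the media were level at 72 h. The means were 4.43 ± 1.11 RPKM in CAF medium and 2.75 ± 0.685 RPKM in control medium (SD, n = 6 each), a log2 change of 0.60 ± 0.16 (SE, adjusted p = 0.0427). Over 3 to 12 h it rose by 0.94 ± 0.18 (adjusted p = 0.0215), and over 24 to 72 h its change was 0.25 ± 0.18 (adjusted p = 0.448). The difference between the periods, -0.68 ± 0.25, did not pass (adjusted p = 0.328). The call over the 6 times was lost when 3, 6, 12, 24 or 48 h was left out (adjusted p = 0.0555, 0.13, 0.123, 0.0791 and 0.0711) and the early call when 6 or 12 h was left out (adjusted p = 0.165 and 0.131).

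CDKN2C measured 7.32, 4.62, 6.52, 4.52, 3.29 and 2.62 RPKM in CAF medium and 5.03, 5.87, 4.61, 5.55, 4.97 and 3.44 RPKM in control medium. CAF medium was lower at 3 of 3 late times and higher at 2 of 3 early ones. The log2 change was -0.08 ± 0.15 over the 6 times (adjusted p = 0.745), 0.21 ± 0.17 early and -0.38 ± 0.17 late (adjusted p = 0.465 and 0.225).

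By period, 2 of the 9 genes passed over 3 to 12 h, CDKN2D and CCND1, where 5.63% of all tested genes did (3.77% up and 1.86% down). Over 24 to 72 h 0 of the 9 passed limma's test, where 4.09% of all tested genes did (1.36% up and 2.74% down), although 6 had an unadjusted p under 0.05. For the difference between the periods 0 of 9 passed limma's test, where 0.416% of all tested genes did (0.0582% up and 0.357% down), and 3 had an unadjusted p under 0.05 (CDK4, CDKN2C and CDKN2D). At single times a log2 difference of at least 1 was reached by CDKN1B at 3 h (2.18% of all tested genes) and by CDKN1C and CDKN2D at 6 and 12 h (3.29 and 4.29% of all tested genes). CDKN1C alone reached it at 24 and 48 h (4.09 and 5.40%), and 0 of 9 at 72 h (0.906%).

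Because RPKM is scaled by gene length, the levels of the genes can be summed within a class. The 3 Cip/Kip genes summed to 56.8 to 164.3 RPKM in CAF medium and 44.1 to 95.7 RPKM in control medium. CDK4 and CDK6 together summed to 23.7 to 48.2 RPKM in CAF medium and 32 to 46.2 RPKM in control medium. The ratio of the summed Cip/Kip level to that of the 2 kinases was 1.19, 1.42, 1.42, 1.92, 6.32 and 4.94 in CAF medium at 3, 6, 12, 24, 48 and 72 h. In control medium it was 1.22, 1.40, 1.09, 1.25, 2.01 and 2.99. The ratios were close at 3 and 6 h, and CAF medium had the higher one from 12 h on. CDKN1A made up most of the Cip/Kip sum, 67.9% on average in CAF medium and 73.5% in control medium, and CDKN1C 3.55 and 1.55%.

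The make-up of the cyclins overlapped between the media. CCND1 held 76.3 to 82.4% of the summed D cyclin level in CAF medium and 76.8 to 84.8% in control medium, and CCND3 held nearly all the rest. CDK6 held 21.6 to 30.6% of the summed CDK4 and CDK6 level in CAF medium and 25.6 to 39.7% in control medium. The ratio of CDK4 to CDK6 was 2.70, 2.76 and 3.64 in CAF medium at 3, 6 and 12 h, against 1.52, 1.88 and 1.96 in control medium. At 24 h it was 3.01 in CAF medium and 2.45 in control medium. At 48 and 72 h it was 2.54 and 2.26 in CAF medium and 2.903 and 2.376 in control medium. CDKN2D exceeded CDKN2C in CAF medium at 6, 48 and 72 h, with ratios of 1.201, 1.66 and 1.28, and in control medium at 0 of 6 times, where the highest ratio was 0.98 at 72 h. These sums and ratios are descriptions with no test.

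**Figure D3:**
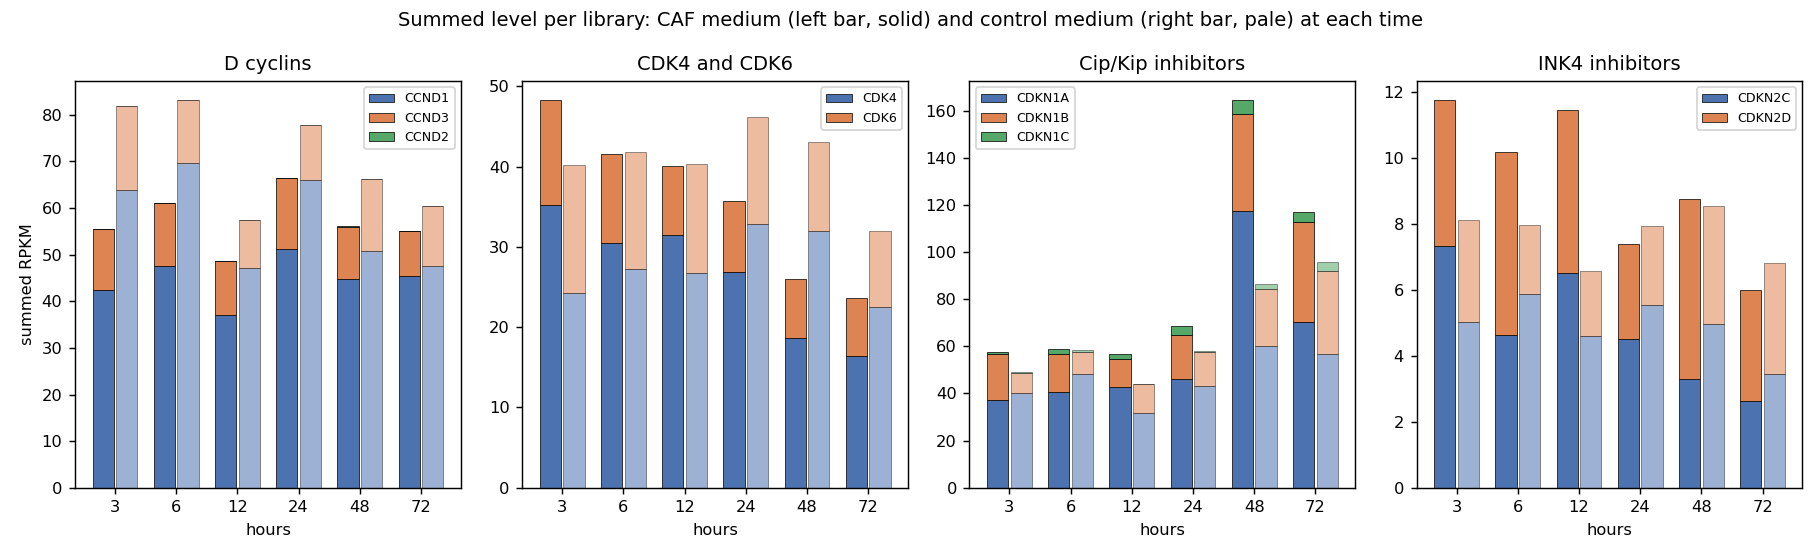
Summed RPKM per library for each class against hours, with CAF medium as the left, solid bar and control medium as the right, pale bar of each time, and the genes stacked in colours. The Cip/Kip sum is highest in CAF medium at 48 h, at 164.3 RPKM, and the CDK4 and CDK6 sum is lowest in CAF medium at 72 h, at 23.7 RPKM.

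A line was fitted through the means of the 2 media at each time, with time counted in doublings, and 5 of the 9 genes changed, where 24.7% of all tested genes did (15.1% up and 9.62% down). The Cip/Kip genes rose, CDKN1C by log2 0.39 ± 0.08, CDKN1B by 0.36 ± 0.07 and CDKN1A by 0.20 ± 0.06 per doubling of time (adjusted p = 0.00789, 0.006 and 0.0358). CDK6 and CDKN2C fell, by 0.16 ± 0.03 and 0.17 ± 0.04 (adjusted p = 0.00988 and 0.0198). CDK4 (-0.10 ± 0.04, adjusted p = 0.0946), CCND3 (-0.06), CCND1 (-0.03) and CDKN2D (0.004) did not pass, and the sign of CDKN2D turned negative under median centring (-0.02), under quantile normalization (-0.03) and without the 48 h pair (-0.04). In control medium alone CDKN1B measured 35.2 RPKM at 72 h and 8.23 RPKM at 3 h, and CDKN1C 3.68 and 0.51 RPKM.

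The rise lay in the later libraries. Within 3 to 12 h the slopes of CDKN1A, CDKN1B and CDKN1C were -0.03, -0.04 and 0.03, and within 24 to 72 h they were 0.38, 0.78 and 0.81. CDK6 had slopes of -0.20 and -0.24 in the 2 periods, and CDKN2C of -0.07 and -0.40. Since the later libraries were also the deeper ones, time and depth cannot be told apart between the periods. Within 24 to 72 h depth also differed with time. It was 37.1 and 33.9 M reads in control and CAF medium at 24 h, and 40.1 and 40.6 M at 72 h. The part of depth in the slopes was not tested. The call for CDKN1B stood whichever time was left out. That for CDK6 was lost without 3 or 72 h (adjusted p = 0.0512 and 0.0822), that for CDKN1A without 6, 48 or 72 h (0.0697, 0.123 and 0.0972) and under median centring (0.0562), that for CDKN1C without 72 h (0.0551) and that for CDKN2C without 48 or 72 h (0.0573 and 0.19). Under median centring CDK4 passed (-0.13, adjusted p = 0.0488).

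The genes whose pattern was most like that of each tested gene were ranked by Pearson correlation of log2(RPKM + 0.5) over the 12 libraries, among genes that averaged 5 RPKM or more. These correlations are descriptions, since all libraries share the time course and medium. CDKN1B was followed most closely by UBE2H (r = 0.98), MIA3 (0.97) and BCL6 (0.97), of which BCL6 encodes a transcriptional repressor. CDKN1C was most like ACSM3 (0.96), REEP6 (0.95) and CKB (0.95), the brain-type creatine kinase. CDK6 was most like KCTD1 (0.97), PARVA (0.96) and PDSS1 (0.96), CDK4 like AP2M1 (0.97), SNRPB (0.95) and the mitotic kinase gene NEK2 (0.95), and CCND1 like MAK16 (0.96), MIOS (0.95) and TUBGCP3 (0.94). For CDKN1A the closest were TAF1D (0.95), TMEM39A (0.95) and the non-coding GAS5 (0.94), and for CDKN2C they were ZNF592 (0.96), NABP2 (0.95) and the keratin gene KRT7 (0.95). CDKN2D (TRIM3, FAM134A and H1F0, r = 0.89 to 0.91) and CCND3 (UBE2D2, PIGC and LSM4, 0.85 to 0.87) had less close companions.

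Genes that act beside or after the D cyclins were read from lists. These lists, like those of S phase, regulators and turnover below, were chosen with earlier results of these data known. Their counts, set beside the share of all tested genes, are therefore descriptions and no independent readout. Among the cyclin E and A partners, the CDK2 phosphatase gene CDC25A and the CDK-activating kinase genes, 3 of 8 fell over the 6 times and 0 rose (median log2 0.03). They were CCNE2 (log2 -0.99, adjusted p = 0.0206), CCNA2 (-0.66, adjusted p = 0.0446) and CDC25A (-0.58, adjusted p = 0.0209). Of all tested genes 4.13% fell over the 6 times and 6.06% rose. Of the retinoblastoma family and E2F genes 2 of 12 tested fell over the 6 times, RBL1 (p107) and the repressor E2F8, by log2 0.60 each (adjusted p = 0.0311 and 0.0347). E2F8 only just cleared the filter of 1 RPKM, with a mean of 1.007 RPKM over the 12 libraries. Over 24 to 72 h it averaged 0.37 RPKM in CAF medium and 1.09 RPKM in control medium, near the pseudocount of 0.5. Over 3 to 12 h 1 of 12 rose, the E2F partner gene TFDP2 (log2 0.54, adjusted p = 0.0408), and 0 fell, with a median of -0.18. Of all tested genes 3.77% rose over 3 to 12 h. The TFDP2 call was lost when 6, 12, 48 or 72 h was left out (adjusted p = 0.256, 0.155, 0.0503 and 0.0603). Over 24 to 72 h 4 of 12 fell, E2F1 (-0.89), E2F7 (-0.86), E2F8 (-0.82) and RBL1 (-0.80), where 2.74% of all tested genes fell. The median was -0.26, beside -0.02 over all tested genes. The count of partners over the 6 times was 0 without the 6, 12 or 24 h pair. By period, 1 of 8 partners fell over 3 to 12 h, CCNE2 (-1.29, adjusted p = 0.0234), where 1.86% of all tested genes fell. Over 24 to 72 h 1 of 8 fell, CCNA2 (-1.16, adjusted p = 0.00338), where 2.74% of all tested genes fell. With 1 time left out the early count was 0 to 1 and the late count stayed at 1. The count of the E2F list over the 6 times was 0 without 6, 12, 24 or 48 h. Over 24 to 72 h the E2F count was 0 without 24 or 48 h and 2 without 6 or 72 h.

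Genes of S phase, which E2F factors switch on, were lower in CAF than in control medium late. Over 24 to 72 h 10 of 12 fell and 0 rose, where 2.74% of all tested genes fell and 1.36% rose. The median log2 change was -0.89, beside -0.02 over all tested genes. The lowest were RRM2 (-1.58, adjusted p = 0.00331), a subunit of ribonucleotide reductase, the origin licensing gene CDC6 (-1.21, adjusted p = 0.00331) and the helicase genes MCM4 (-1.16) and MCM5 (-1.06). Over 3 to 12 h 1 of 12 fell, RRM2 (-0.65, adjusted p = 0.0441), where 1.86% of all tested genes fell. The median was -0.19, and the RRM2 call was lost when 6, 12 or 48 h was left out (adjusted p = 0.224, 0.206 and 0.053). For the difference between the periods 0 of 12 passed limma's test (median -0.77), where 0.416% of all tested genes did. The late count was 2 without the 48 h pair, where RRM2 and CDC6 passed, and 8 to 10 without any other pair. With time, over the means of the 2 media, 9 of 12 fell and 0 rose (median log2 -0.33 per doubling of time). Of all tested genes 9.62% fell and 15.1% rose with time. With 1 time left out 5 to 10 of the list fell with time. The decline of these genes with time is thus not read from CAF medium alone. The 48 h library of CAF medium was also the highest of the 12 for CDKN1A, CDKN1C and the summed Cip/Kip level.

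Regulators of the inhibitor genes included forkhead factors, which activate CDKN1B when growth signals are low. FOXO4 rose over the 6 times (log2 0.94, adjusted p = 0.0178) and FOXO1 rose (0.57, adjusted p = 0.019). Leaving out 6, 12 or 24 h ended the calls for FOXO4 (adjusted p = 0.0657, 0.0665 and 0.061) and FOXO1 (0.0677, 0.0626 and 0.0672). Of the 12 genes of inhibitor and cyclin turnover 0 passed limma's test over the 6 times (median -0.12), where 10.2% of all tested genes did. Over 24 to 72 h 2 of them fell, DTL (-0.94, adjusted p = 0.00432), which directs p21 to degradation, and CKS1B (-0.63, adjusted p = 0.0318), a cofactor of SKP2 in p27 degradation. Of all tested genes 2.74% fell over 24 to 72 h. The CKS1B call was lost when 48 or 72 h was left out (adjusted p = 0.288 and 0.0908).

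**Figure D4:**
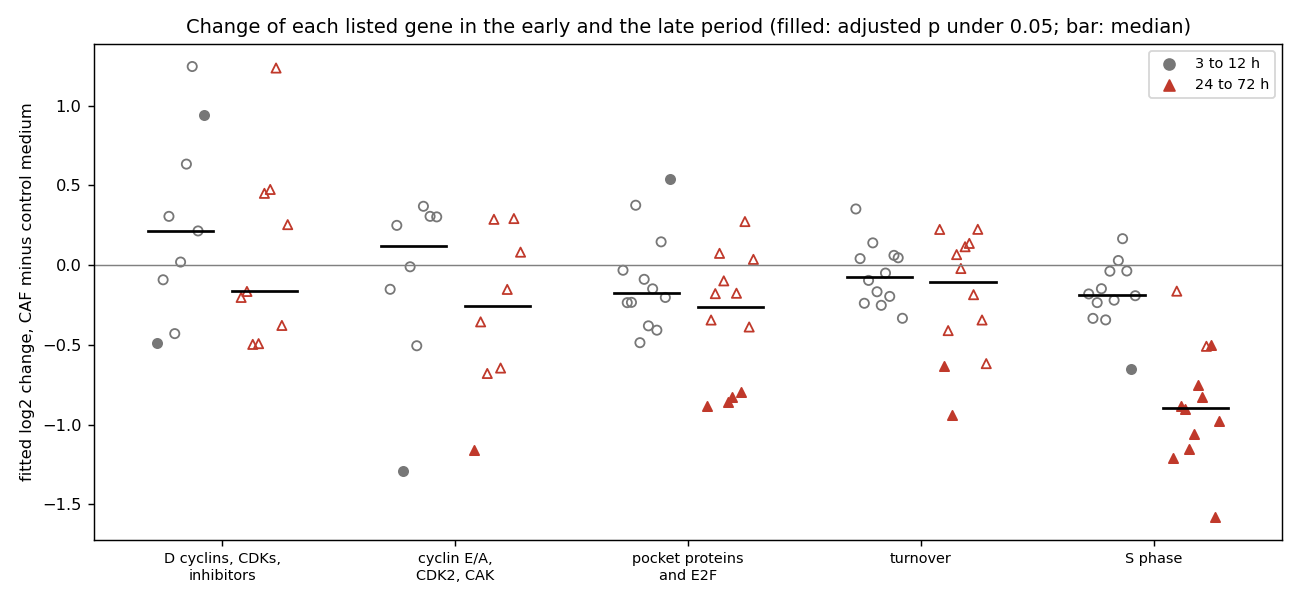
Fitted log2 change of each gene of 5 lists, CAF minus control medium, over 3 to 12 h (circles) and 24 to 72 h (triangles). Symbols are filled where the adjusted p was under 0.05 and bars are medians. The S phase genes lie low in the late period, with a median of -0.89, while the D cyclins, kinases and inhibitors lie on both sides of 0 in both periods.

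MicroRNAs known to target these genes were read from the small RNA libraries, also 6 per medium. A miRNA pairs with its targets through the seed, bases 2 to 8, shown here in capitals (mature sequences from RefSeq, GRCh38.p14). The first 2 target CDKN1B and CDKN1C, miR-34a targets CCND1, CDK4 and CDK6, miR-16 the D cyclins, let-7a CCND1 and CDK6, and miR-17 CDKN1A.
hsa-miR-221-3p: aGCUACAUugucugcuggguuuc
hsa-miR-222-3p: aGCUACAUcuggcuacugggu
hsa-miR-34a-5p: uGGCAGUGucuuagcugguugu
hsa-miR-16-5p: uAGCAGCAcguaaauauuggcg
hsa-let-7a-5p: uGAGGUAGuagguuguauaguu
hsa-miR-17-5p: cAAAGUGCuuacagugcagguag

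Of the 29 miRNAs matched to these families by name 23 averaged at least 10 RPM (reads scaled to library depth), and 0 of them, like 0 of all 470 tested miRNAs (0%), passed over the 6 times. The 29 include miR-449b-3p, the arm whose seed (AGCCACA) is unlike that of miR-34a. It averaged 0.098 RPM in CAF medium and 0.07 RPM in control medium and was not tested. At an unadjusted p under 0.05 there were 49 of the 470 by limma and 51 by edgeR on the recovered reads, which also called 0. The median log2 change of the 23 was 0.15, beside 0.02 over the 470. The smallest p among the 23 belonged to miR-34c-5p. It measured 465, 212, 370, 490, 516 and 1364 RPM in CAF medium at 3, 6, 12, 24, 48 and 72 h, against 199, 174, 239, 235, 334 and 504 RPM in control medium. In these pairs CAF medium was higher at 6 of 6 times (log2 0.87 ± 0.18, unadjusted p = 0.0008, adjusted p = 0.118). For miR-221-3p the log2 change was -0.12 ± 0.27 (adjusted p = 0.916) and for miR-222-3p it was -0.25 ± 0.21 (adjusted p = 0.778). The value of miR-221-3p rested on the 3 h pair, 3551 RPM in CAF medium and 11230 RPM in control medium, and was 0.19 without it. Those of miR-34a-5p, miR-16-5p, let-7a-5p and miR-17-5p were 0.20, 0.25, 0.15 and 0.11 (adjusted p = 0.819, 0.648, 0.787 and 0.924), and that of miR-17-5p was -0.09 without the 3 h pair.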

How the data were processed

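Per the labels' protocols, TRIzol RNA was cleared of DNA and directional libraries were made from its polyadenylated part. The RPKM values were deposited by the authors to 2 decimals with gene model lengths; TopHat2, edgeR and hg19 are named per the submitters' processing notes. How reads were counted, with or without strand, and how replicates were joined is not stated. The miRNA values deposited by the authors are RPM, miRNA reads scaled to a common library total with no length term, and carry the name TPM. Bowtie and hg19 are named for them in the submitters' processing notes.

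Depth was worked out from the steps between low values. Within 0.1 read, 100% of 69 to 89 values per mRNA library (gene models under 400 bases) and 100% of 893 to 1361 values per small RNA library were whole, which gave 0.868 to 5.77 M miRNA reads. Intervals and floors (3 reads) cover counting error only.

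Tests used R 4.3.3 and limma 3.58.1 (lmFit, eBayes with trend, two-sided) on log2(RPKM + 0.5) for the 12029 of 22026 genes that averaged 1 RPKM or more, and on log2(RPM + 1) for the 470 of 2582 miRNAs that averaged 10 RPM or more, adjusted by Benjamini-Hochberg over all tested features at 0.05. Fold changes on these scales understate the change of low genes. Time was a factor in the medium effect (5 residual degrees of freedom) and in the early and late effects (4). Because the 2 libraries of a time are not independent replicates of it, the slope used their mean. edgeR 4.0.16 was an alternative for miRNA reads. The fit of the medium effect over all times was run on simulated data, and the outcome is not given here. No such check is reported for the early, late, period difference, slope and miRNA fits. Pairing came from the time in the labels, not from replicate numbers. Of the 10 genes 7 had RefSeq promoters. All 10 genes are named; of other lists, up to 4 genes with the largest change among those called. Members and lists were chosen with earlier results of these data known. The cell marker, partner, E2F, turnover and S phase lists are given as counts; of the regulators FOXO4 and FOXO1 are given, and some other listed results are not reported here.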

Additional observations from a re-analysis of the deposited data

Results flagged for a closer look

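The medium effect on CDK4 pointed in opposite directions early and late, with CAF medium higher at 3 of 3 times over 3 to 12 h and lower at 3 of 3 times over 24 to 72 h. The late minus early difference was -0.80 on the log2 scale and did not pass the test over all genes (limma, adjusted p = 0.113). Over the 20 sets of 6 libraries (10 genes in each medium) no library stood apart from the others by Dixon's test at its critical value of 0.625. The 6 libraries of a set are 6 times and not replicates, so a change with time widens the range that the test divides by. The test therefore cannot show that no library was unusual.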

How the results depend on the processing

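With 1 time left out, the genes called ranged from 34 to 1416 over the 6 times, 0 to 1085 over 3 to 12 h, 31 to 543 over 24 to 72 h, 0 to 244 for the difference between the periods and 798 to 3487 for time. Of the 9 cyclin, kinase and inhibitor genes 0 to 5, 0 to 3, 0 to 1, 0 and 1 to 5 passed in those comparisons, in the same order. The log2 value changed sign in such runs for CDK4 (-0.22 to 0.038) and CDKN2C (-0.20 to 0.0074) over the 6 times and for CCND3 (-0.22 to 0.090) and CDKN1A (-0.18 to 0.15) over 3 to 12 h. For the difference between the periods it did so for CCND3 (-0.33 to 0.069), CDK6 (-0.16 to 0.011), CDKN1B (-0.48 to 0.12) and CDKN1C (-0.56 to 0.55), and also for the slope of CDKN2D (-0.044 to 0.042), for miR-17-5p (-0.094 to 0.34) and for miR-221-3p (-0.26 to 0.19). With no filter on low values limma called 0 genes over the 6 times, 0 over 3 to 12 h and 0 for the difference (4744, 3797 and 1968 at an unadjusted p under 0.05), with 0 of the 9 genes in each, and it called 36 genes over 24 to 72 h. For time it then called 3 of the 9, without CDKN1A and CDKN2C. Without the time term, that is with no pairing of the libraries of a time (no replicate block), limma called 0 genes over the 6 times (1691 unadjusted), 13 over 3 to 12 h, 0 over 24 to 72 h (1523 unadjusted) and 0 for the difference (813 unadjusted), and 0 of the 9 genes. Quantile normalization left 1 of the 9 over 3 to 12 h. The difference between the periods for CDKN1C, -0.0094, was 0.095 with a pseudocount of 1, 0.049 under median centring and 0.23 under quantile normalization. CDKN1A over 3 to 12 h was -0.023 under median centring, and the slope of CDKN2D -0.018 under median centring and -0.029 under quantile normalization. The cause was not tested. For the 9 genes 462 of the alternative values kept their direction and side of the threshold, 55 lost a call, 4 gained one and 19 changed sign. The main fits called 5, 2, 0, 0 and 5 of the 9 in the comparisons, in the order above, and only those could lose a call. The 462 include values that were not called in the main fit and stayed so, and do not measure how firm the calls are. Leaving out a late time also leaves the early log2 value unchanged, and the reverse. Depth limits CCND2 and CDKN1C, which rest on few reads.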
